A study of Mus musculus with 8 samples.

Results

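The cytosolic ribosomal protein genes encode the proteins of the large (Rpl) and small (Rps) subunits of the ribosome in the cytoplasm. They were taken from the deposited tables by symbol, as Rpl or Rps followed by a digit, a or p. Of the symbols that matched, 7 pseudogene entries, 10 Rps6k kinase genes and 2 further genes on chromosomes 18 and 19 were left out. This left 85 of the 23929 gene symbols: 51 Rpl genes, 33 Rps genes and Rps19bp1, which the spelling takes in although it encodes a binding partner of RPS19 and not a ribosomal protein. Gnb2l1 (Rack1), which encodes a ribosomal protein under another name, is outside the rule and is given at the end.

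RNA from 4 mouse pro-B cell lines of strain 129SV, labelled as bone marrow, was sequenced as stranded poly(A) libraries, 2 libraries a line. The wild-type line (WT) carries no named deletion. CBE-1 and CBE-2 (line 1 and line 2 in the titles) are both labelled CBE-/- in title and IGCR1-/- in genotype, with no statement of how they are related: CBE stands for CTCF-binding element, and IGCR1 is a control region of the immunoglobulin heavy chain (IgH) locus that holds such elements. The line called Eµ-null here is labelled Eµ-/- and lacks the enhancer in the intron of that locus. All 4 lines were grown without treatment in RPMI medium with serum. WT and the Eµ deletion are each 1 line, so line and genotype cannot be told apart there, and no ribosomal protein gene lies in the deleted elements, so the values below do not check the labels. Nothing in the labels states that a line's libraries came from separate cultures: the p-values rest on the spread of these libraries alone, and that spread may be technical.

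A ribosome holds each of its proteins in a fixed ratio, and in dividing cells the mRNAs of these proteins are among the most abundant. Many of them begin with a C followed by a run of pyrimidines, the terminal oligopyrimidine (TOP) tract, through which mTORC1 signalling and the RNA-binding protein LARP1 control their translation and stability. Several members have paralogues whose use differs between tissues, among them Rpl22l1, Rps27l, Rpl3l, Rpl10l and Rpl39l.

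The start-site sequence is the feature that these genes are known to share, and the windows below show it: the first 3 for its clear form, the other 4 because their genes differed between the lines. Each window holds 15 bases on either side of the start that RefSeq annotates in GRCm38.p6, read 5′ to 3′ on the gene's strand, with the longest run of 4 or more pyrimidines in capitals. In Rpl35, Rpl28, Rplp2 and Rps21 the run crosses the annotated start, and in Rpl22l1 it begins just after it. In Rps12 a run reaches the last base shown, so its full length is not seen. Rps21 has a further annotated start, whose window is not shown. Rpl41 has no such run at its annotated start.
Rpl35 (chr2:39005117-39005146, minus strand): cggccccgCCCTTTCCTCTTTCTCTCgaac
Rpl28 (chr7:4792950-4792979, plus strand): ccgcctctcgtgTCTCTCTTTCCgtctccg
Rplp2 (chr7:141447636-141447665, plus strand): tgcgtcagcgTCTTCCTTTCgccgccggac
Rps12 (chr10:23787195-23787224, minus strand): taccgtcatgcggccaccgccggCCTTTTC
Rpl22l1 (chr3:28805493-28805522, plus strand): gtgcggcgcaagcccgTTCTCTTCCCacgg
Rps21 (chr2:180257364-180257393, plus strand): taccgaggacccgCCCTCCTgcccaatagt
Rpl41 (chr10:128549154-128549183, minus strand): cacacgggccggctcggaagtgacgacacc

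Start sites were listed for 66 of the 85 genes, in 78 windows. The letters CTTTC or CTTTT, searched on the transcribed strand within 25 bases on either side of the start, were present in 24 of the 78 windows (30.8%) and in 11.5% of the 32851 windows of all genes. On the opposite strand the same letters were present in 12.8% of the members' windows and 10.7% of all windows, so the excess lay on the transcribed strand. The letters CCGGAAG, the core bound by ETS-family factors such as GABPA, were found on either strand of the 300 bases around the start in 34.6% of the members' windows and 8.86% of all windows. A match describes letters in a window only.

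Levels were given as FPKM, which scales the reads of a gene to its length and to the library. Of the 85 genes, 74 were above 100 FPKM in every library and 31 had a mean above 1000, and 50 of the 100 genes with the highest mean FPKM of all were ribosomal protein genes. Rpl41, which encodes the shortest ribosomal protein, had the highest mean of the 85, with 4187 to 7032 FPKM over the 8 libraries. Next were Rplp1 of the stalk (2937 to 4105 FPKM), Rps15 (2982 to 3854 FPKM), Rpl32 (2613 to 3592 FPKM) and Rpl39 (2680 to 3593 FPKM). A level of 1 FPKM or more in at least 2 libraries was reached by 80 of the 85 genes, and these were tested. The median over these 80 was 842 FPKM, beside 13.6 FPKM over all 10479 genes tested.

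Markers of the labelled cell type were present in every library. The width of the deposited intervals implied 31.3 to 49.5 M reads a library, highest in WT replicate 1. Implied reads are not counts and did not follow the level in every member. They cannot be set against the target of 20 to 30 M that the protocol names. At least 62 reads were implied for each tested member in every library. Of 16 pro-B markers, 14 were at 1 FPKM or more in WT (Rag1 and Rag2, which cut the immunoglobulin genes, were not) and 16 in every mutant library, with a summed level of 4718 and 5788 FPKM in WT and 4592 to 6354 in the mutants. Of 6 T cell markers Lck alone reached 1 FPKM: the list summed to 66.4 and 82.2 FPKM in WT and 17.0 to 51.99 in the mutants, higher in WT as most members were, with Cd3e, Cd4 and Cd8a listed at 0 in every library. Myeloid markers summed to 1.61 to 8.85 FPKM, and no erythroid or stromal marker reached 1 FPKM. The part of Lck, Rag1 and Rag2 levels in the members' differences was not tested.

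Ribosomal protein transcripts made up a larger part of the RNA in WT than in any mutant library. The 85 genes summed to 100266 and 103625 FPKM in WT, 77573 and 86249 in CBE-1, 87436 and 94899 in CBE-2 and 86703 and 90861 in the Eµ-null line. Both WT libraries were above all 6 mutant libraries, and CBE-1 replicate 1 was the lowest. As a share of the summed FPKM of all genes this was 18.9 and 19.5% in WT, 15.2 and 16.9% in CBE-1, 17.0 and 18.5% in CBE-2 and 16.8 and 18.5% in the Eµ-null line, again without overlap between WT and the other lines. Relative to the WT mean, the sum was 80.3% in CBE-1, 89.4% in CBE-2 and 87.1% in the Eµ-null line. No test was made on this sum. Both subunits took part: the large subunit genes summed to 54875 ± 1387 FPKM (SD, n = 2) in WT and to 79.2, 88.1 and 84.7% of that in CBE-1, CBE-2 and the Eµ-null line, and the small subunit genes to 47036 ± 989 FPKM (SD, n = 2) in WT and to 81.6, 90.9 and 89.9%. The ratio of large to small subunit sums was 1.17 in WT, 1.13 in each CBE line and 1.10 in the Eµ-null line (means of 2 libraries). Rpl41 alone made up 6964 FPKM of the large subunit sum in WT and 4390, 4838 and 4382 in CBE-1, CBE-2 and the Eµ-null line. The ratio without Rpl41 was not computed. By gene, the median log2(FPKM + 1) difference from WT in the CBE lines was -0.20 for large and -0.24 for small subunit genes. In the Eµ-null line it was -0.16 for both. In RNA from whole cultures, fewer cells of a type and less RNA per cell cannot be told apart.

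**Figure D1:**
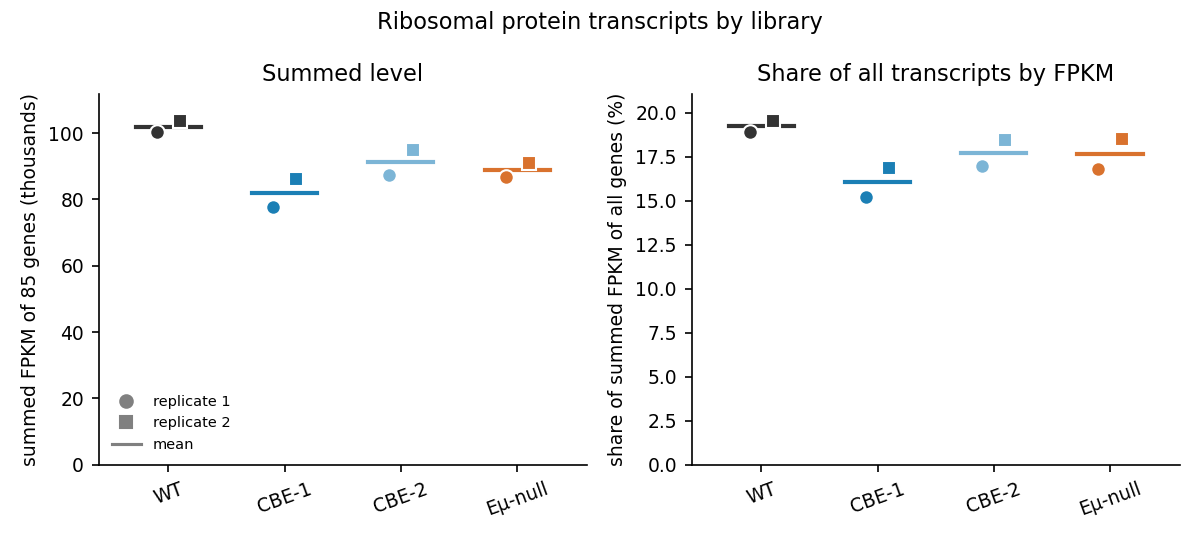
Summed FPKM of the 85 genes (left) and its share of the summed FPKM of all genes in percent (right) in each library of the 4 lines. Circles are replicate 1, squares replicate 2 and bars the line means. Both WT libraries, at 100266 and 103625 FPKM, lie above all 6 mutant libraries in both panels, and CBE-1 replicate 1 is lowest in both.

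Replicate number moved with these levels. The members' median was higher in replicate 2 than in replicate 1 of every line, by 0.05 in WT, 0.16 in CBE-1, 0.13 in CBE-2 and 0.09 in the Eµ-null line on the log2(FPKM + 1) scale, and 64, 66, 74 and 60 of the 80 tested members were higher in replicate 2. Over all genes tested the same medians were 0.0015, 0.03, 0.02 and 0.06. Every line has 1 library of each number, and a fit with the number as a block is given beside the counts that it changed.

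Library by library, both WT values were above all 6 mutant values for 40 of the 80 tested members (50%), beside 14% of all genes tested, and both were below all 6 for 0 members, beside 18.2% of all genes. Among the 772 other genes with a mean of 100 FPKM or more, 15.5% had WT above and 8.94% had WT below. The 40 genes held both subunits: Rps12, Rps21, Rps2 and Rps13 of the small subunit and Rpl41, Rpl9, Rpl36a, Rplp0, Rplp1 and Rplp2 of the large one were among them, whereas Rpsa, Rpl4 and Rpl8 were not. With the FPKM rescaled to the same sum in each library (TPM) the count was 25 (31.2%, beside 10.9% of all genes), and with median-of-ratios scaling it was 54 (67.5%, beside 15.8%). Leaving out single libraries gave 40 to 59 (50 to 73.8%), beside 14.9 to 18.7% of all genes. Both were highest without WT replicate 1.

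Gene by gene, most members differed from WT in the same direction by small amounts, and few of them passed the test. In the CBE lines together against WT, 75 of the 80 differences were negative, with a median of -0.21 on the log2(FPKM + 1) scale, beside 0.03 over all genes tested. The limma test, adjusted by Benjamini-Hochberg over all 10479 genes with a threshold of 0.05, called 9 members lower and 0 higher (23 of the 80 had an unadjusted p under 0.05), beside 22.3% of all genes called in either direction and 9.78% called lower. The share called lower was thus near that of all genes, while no member was called higher, beside 12.5% of all genes. The fit with replicate number as a block called 26 members lower and 0 higher (50 at an unadjusted p under 0.05), beside 33% of all genes called, 15.1% lower and 17.9% higher. The 9 genes were Rps12, Rpl22l1, Rpl41, Rpl9, Rps21, Rpl36a, Rplp0, Rps2 and Rps13. The count without the block fell without any library of WT or of the CBE lines, as did that over all genes. The members' median was -0.24 without WT replicate 1 and -0.18 without WT replicate 2. It was -0.17 and -0.25 without CBE-1 replicate 1 and 2, and -0.18 and -0.25 without CBE-2 replicate 1 and 2.

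Taken singly, CBE-1 had 10 members lower than WT (beside 8.54% of all genes lower and 19.4% called), and CBE-2 had 4 (beside 8.19% lower and 18.7% called): Rps12, Rpl22l1, Rpl41 and Rpl9. The members' medians were -0.28 and -0.15. With quantile normalization they were -0.12 and -0.04, beside -0.02 and -0.005 over all genes. The number called fell in both lines without either WT library. It also fell in CBE-1 without any library of the CBE lines, and in CBE-2 without either of its own libraries. In the same fits the number over all genes fell too. The number in CBE-2 also fell without CBE-1 replicate 2, where that over all genes rose. Without WT replicate 1 or 2 the median was -0.30 or -0.24 in CBE-1 and -0.17 or -0.10 in CBE-2. In CBE-1 it was -0.18 without CBE-1 replicate 1 and -0.37 without CBE-1 replicate 2. In CBE-2 it was -0.10 without CBE-2 replicate 1 and -0.20 without CBE-2 replicate 2. With the replicate block the counts were 31 lower in CBE-1 (beside 30% of all genes called, 14.1% lower and 15.9% higher) and 8 lower and 1 higher in CBE-2 (beside 28.8% called, 13.1% lower and 15.7% higher). Both lines share the same WT libraries. The direct comparison of CBE-2 with CBE-1, which carry the same labelled genotype, gave 72 of 80 positive differences with a median of 0.14, beside 0.03 over all genes. The median was 0.06, with 61 of 80 positive, without CBE-1 replicate 1, 0.08 without CBE-2 replicate 2, 0.22 without CBE-1 replicate 2 and 0.21 without CBE-2 replicate 1. It called 1 member, Rps21, higher (8 at an unadjusted p under 0.05), beside 10.2% of all genes called, 5.17% higher and 5.03% lower. The block raised this to 6: Rps21, Rplp0, Rplp2, Rps12 and Rps2 higher and Rpl22l1 lower, beside 16.6% of all genes called, 8.25% higher and 8.32% lower.

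In the Eµ-null line against WT, 74 of 80 differences were negative, with a median of -0.16, beside 0.01 over all genes. The test called 7 members lower and 0 higher (12 at an unadjusted p under 0.05), beside 21.8% of all genes called, 10.4% lower and 11.3% higher: Rps12, Rps27l, Rpl41, Rps21, Rpl9, Rpl36a and Rplp0. Of these 7, Rps27l was the gene not called in the CBE lines. The fit with the block called 10 lower and 0 higher (21 at an unadjusted p under 0.05), beside 34% of all genes called, 16.4% lower and 17.6% higher. The count without the block fell without either WT library, Eµ-null replicate 2 or either library of CBE-2, as did that over all genes. It also fell without either library of CBE-1, where that over all genes rose. The median was -0.19 without WT replicate 1, -0.14 without WT replicate 2, -0.20 without Eµ-null replicate 2 and -0.11 without Eµ-null replicate 1. With all libraries it was -0.18 under median-of-ratios scaling and -0.09 with TPM, beside -0.01 and 0.07 over all genes. With quantile normalization it was -0.02, beside -0.02 over all genes, with 50 differences negative and 29 positive. Between the Eµ-null and the CBE lines the median was 0.05, beside -0.01 over all genes, and from 0.0078 without CBE-1 replicate 1 to 0.09 without Eµ-null replicate 1 when single libraries were left out. In this comparison 1 member, Rpl22l1, was called higher, beside 12.4% of all genes called, 5.16% higher and 7.25% lower. With the replicate block Rpl22l1 was called higher and Rpl36al and Rps27l lower, beside 22.2% of all genes called, 9.86% higher and 12.4% lower.

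**Figure D2:**
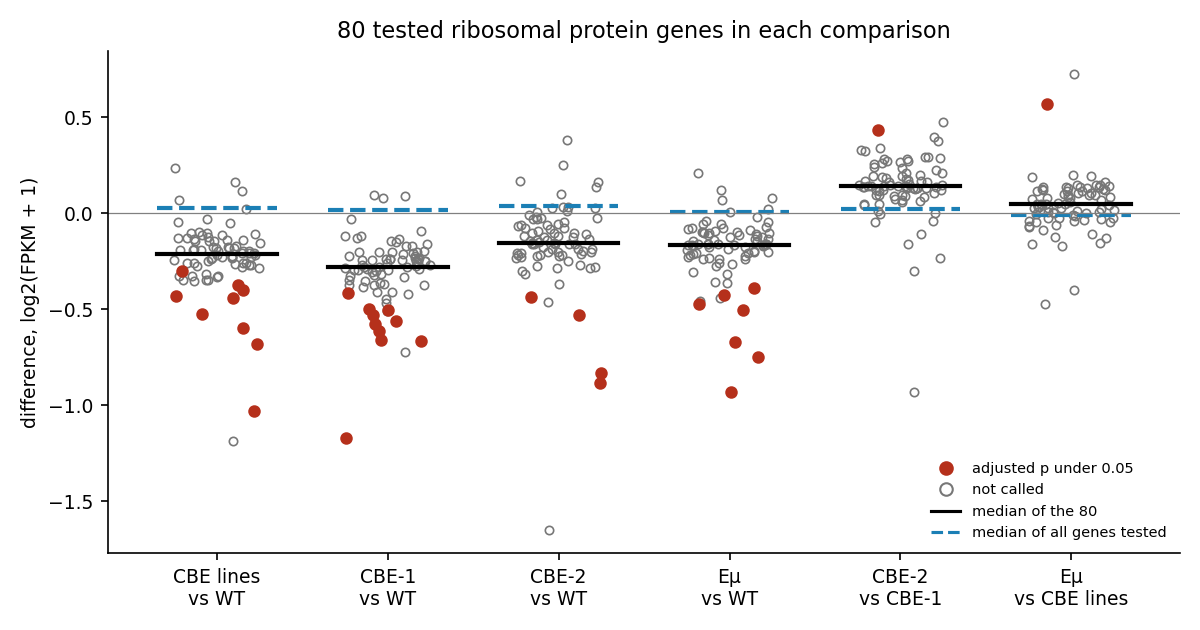
Differences on the log2(FPKM + 1) scale (y axis) of the 80 tested genes in each comparison (x axis). Filled points passed the limma test at an adjusted p under 0.05, open points did not, solid bars are medians of the 80 and dashed bars medians of all genes tested. Most points lie below 0 in the 4 comparisons with WT, with medians from -0.28 to -0.15, and above 0 between the CBE lines.

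The largest called difference among the small subunit genes was that of Rps12, which encodes a protein of the small subunit's beak (mm9 chromosome 10, 23504989 to 23507015). It was at 616 and 631 FPKM in WT, 267 and 286 in CBE-1, 322 and 355 in CBE-2 and 312 and 342 in the Eµ-null line. Every mutant library was at most 355 FPKM, and the mutant lines did not overlap with WT. The log2 difference was -1.03 (SE 0.09, limma adjusted p = 0.000383) in the CBE lines and -0.93 (adjusted p = 0.00142) in the Eµ-null line, and it was -1.17 in CBE-1 and -0.88 in CBE-2 (adjusted p = 0.000495 and 0.00159). These calls held without any single library and under the 17 other settings tried. Between the CBE lines Rps12 differed by 0.29 (adjusted p = 0.155, and 0.0468 with the replicate block). The Rps12 entry encloses those of the small nucleolar RNA genes Snora33 and Snord100, and 89.5% of the 75-base windows of its transcript also occur in other annotated genes.

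Rps21 encodes a small subunit protein that lies next to RPSA in the ribosome (mm9 chromosome 2, 179992084 to 179993149). It was at 1218 and 1189.7 FPKM in WT, 772 and 754 in CBE-1, 1023 and 1039 in CBE-2 and 822 and 876 in the Eµ-null line. No line overlapped with another: WT was highest, then CBE-2, the Eµ-null line and CBE-1. The difference from WT was -0.44 in the CBE lines (SE 0.09, limma adjusted p = 0.0142) and -0.50 in the Eµ-null line (adjusted p = 0.0165). It was -0.66 (adjusted p = 0.00559) in CBE-1 and -0.22 (adjusted p = 0.194) in CBE-2, and the lines differed by 0.43 (adjusted p = 0.0447). Both calls against WT were lost without either WT library (adjusted p up to 0.145), as was that in CBE-1 alone, that in the CBE lines also without either library of CBE-2, and the call between the CBE lines was lost without any library of WT or of the CBE lines (adjusted p up to 0.291).

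Rps2, at the entry of the mRNA channel, and Rps13, at the subunit interface, were called lower in the CBE lines. Rps2 was at 627 and 686 FPKM in WT, 431 and 449.9 in CBE-1, 569.9 and 593 in CBE-2 and 584 and 531 in the Eµ-null line, a difference of -0.37 in the CBE lines (limma adjusted p = 0.0309) and -0.24 in the Eµ-null line (adjusted p = 0.167). Rps13 was at 331 and 346 FPKM in WT, 255 and 253 in CBE-1, 287 and 307 in CBE-2 and 292 and 314 in the Eµ-null line, a difference of -0.30 in the CBE lines (adjusted p = 0.0426) and -0.16 in the Eµ-null line (adjusted p = 0.274). WT was highest for both genes, without overlap. Without either WT library both calls were lost (adjusted p up to 0.31), as they were without CBE-1 replicate 1 or either library of CBE-2, and that of Rps13 also without CBE-1 replicate 2. Between the CBE lines Rps2 differed by 0.40 (adjusted p = 0.0673, and 0.034 with the replicate block).

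The differences were also read against the other members, with each library scaled to the same median of the ribosomal protein genes. That scaling moved the median of all genes to 0.23 and 0.17 in these comparisons. It called 3 members higher and 3 lower in the CBE lines and 1 higher and 2 lower in the Eµ-null line. In the CBE lines its calls included Rpl7l1 (0.34, limma adjusted p = 0.0441) and Rpl28 (0.30, adjusted p = 0.0463) higher, and Rps12 (-0.80, adjusted p = 0.000904), Rpl22l1 (-0.45, adjusted p = 0.0172) and Rpl41 (-0.37, adjusted p = 0.0347) lower. In the Eµ-null line they included Rps12 (-0.75, adjusted p = 0.00316) and Rpl41 (-0.49, adjusted p = 0.0271) lower. Beside this, 33.3% of all genes were called in the CBE lines (27.6% higher, 5.68% lower) and 25.9% in the Eµ-null line (19.7% higher, 6.24% lower). Under that scaling 0 members were called between the CBE lines (1 at an unadjusted p under 0.05), beside 12.5% of all genes called, 4.1% higher and 8.4% lower. Between the Eµ-null and CBE lines Rpl22l1 was called higher, beside 11.9% of all genes called, 4.52% higher and 7.39% lower, and with the block added 22.6% of all genes were called.

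Of the large subunit genes, Rpl41 had the largest change in FPKM (mm9 chromosome 10, 127985166 to 127986224). It was at 6897 and 7032 FPKM in WT, 4242 and 4537 in CBE-1, 4638 and 5038 in CBE-2 and 4577 and 4187 in the Eµ-null line. All mutant libraries lay below WT, and CBE-1 and the Eµ-null line overlapped. The difference was -0.60 in the CBE lines (SE 0.12, limma adjusted p = 0.0161) and -0.67 in the Eµ-null line (adjusted p = 0.0195). Both calls were lost without WT replicate 1 or 2 (adjusted p up to 0.164), that in the CBE lines also without CBE-2 replicate 1 and that in the Eµ-null line also without Eµ-null replicate 2. With quantile normalization, which gives the top gene of every library the same value, the difference in the Eµ-null line was 0 by construction.

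Rpl9, a protein near the base of the stalk, was at 1209 and 1153 FPKM in WT, 772 and 771 in CBE-1, 831 and 920.0 in CBE-2 and 863 and 840.0 in the Eµ-null line. It was different from WT by -0.52 in the CBE lines (limma adjusted p = 0.00853) and by -0.47 in the Eµ-null line (adjusted p = 0.0246), with no overlap with WT. Without either WT library both calls were lost (adjusted p up to 0.179), and that in the Eµ-null line also without either library of CBE-2 or Eµ-null replicate 2. Of the windows of its transcript 84.2% also occur in other genes, most often in the pseudogene Rpl9-ps6.

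The stalk, made of RPLP0 and pairs of RPLP1 and RPLP2, recruits the translation factors that drive elongation. Its scaffold gene Rplp0 was at 1995 and 2065 FPKM in WT, 1366 and 1384 in CBE-1, 1689 and 1769 in CBE-2 and 1533 and 1569 in the Eµ-null line. WT was highest, without overlap. The difference was -0.40 in the CBE lines (limma adjusted p = 0.0281) and -0.39 in the Eµ-null line (adjusted p = 0.0499). The latter call was lost without any single library (adjusted p up to 0.263), and the former without either WT library, CBE-1 replicate 1 or either library of CBE-2 (adjusted p up to 0.245). Rplp1 was at 3949 and 4105 FPKM in WT, 3083 and 2937 in CBE-1, 3299 and 3579 in CBE-2 and 3095 and 3162 in the Eµ-null line. Rplp2 was at 967 and 1001 FPKM in WT, 688 and 701 in CBE-1, 864 and 897 in CBE-2 and 731 and 857 in the Eµ-null line. WT was highest for both genes. Rplp1 differed by -0.32 and -0.36 and Rplp2 by -0.33 and -0.31 in the CBE and Eµ-null lines, which did not pass the test (adjusted p from 0.0618 to 0.105). With the replicate block all 4 of these differences were called (adjusted p from 0.0204 to 0.0382). Between the CBE lines Rplp0 and Rplp2 differed by 0.33 and 0.34 (adjusted p = 0.129 and 0.137, and 0.0428 and 0.049 with the block). The laminin receptor gene Rpsa, whose protein is also part of the small subunit, was at 1368 and 1491 FPKM in WT, 1129.8 and 1285 in CBE-1, 1353 and 1497 in CBE-2 and 1308 and 1367 in the Eµ-null line, so that WT overlapped with CBE-2.

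**Figure D3:**
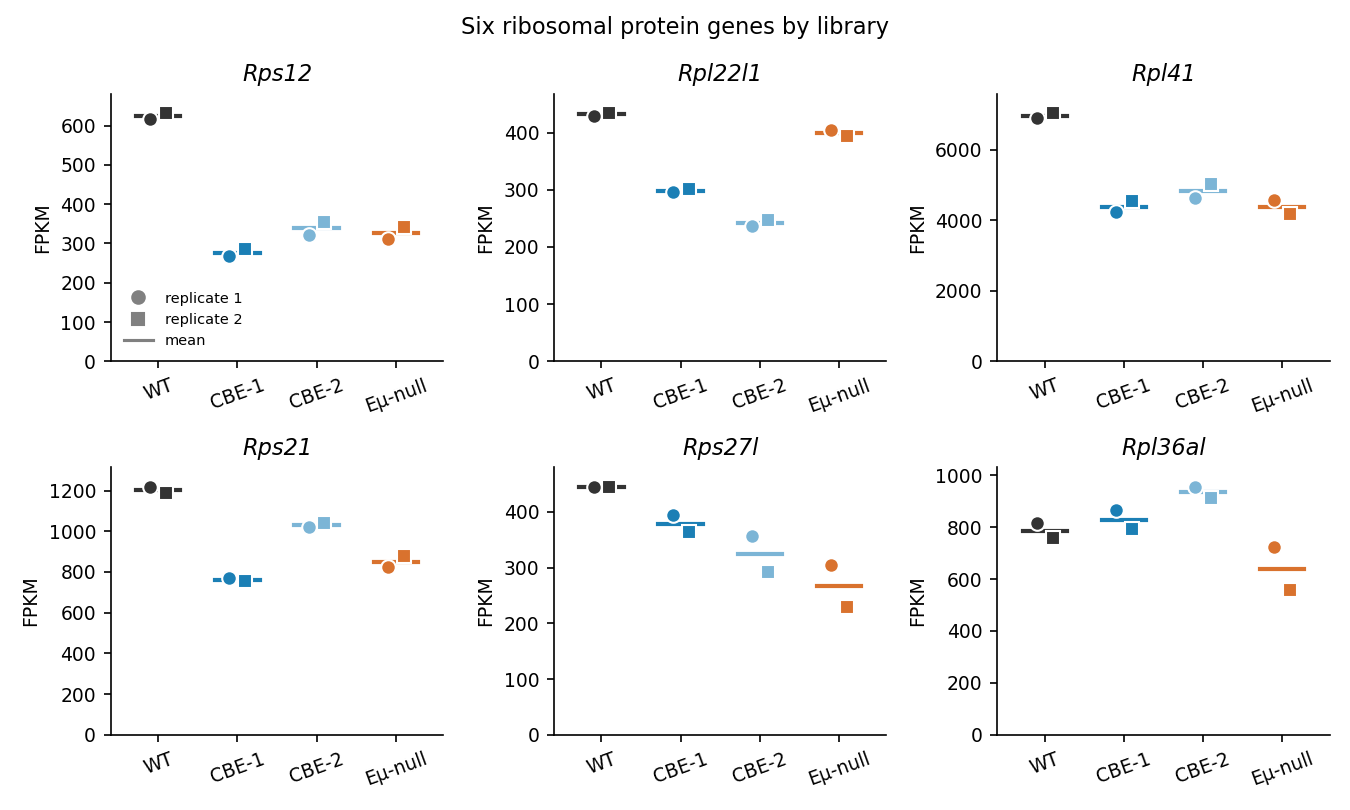
FPKM (y axis, from 0) of 6 ribosomal protein genes in each library of the 4 lines (x axis). Circles are replicate 1, squares replicate 2 and bars the line means. Rps12 is at 616 FPKM or more in WT and at most 355 in every mutant library, Rpl22l1 is near WT in the Eµ-null line and lower in both CBE lines, and Rpl36al is highest in CBE-2 and lowest in the Eµ-null line.

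Rpl22l1 separated the CBE lines from both other lines (mm9 chromosome 3, 28704433 to 28706337). It is the paralogue of Rpl22, a large subunit gene known for its need in lymphocyte development, and RPL22 protein is known to bind the Rpl22l1 mRNA and lower its level. Rpl22l1 was at 429 and 434 FPKM in WT, 296 and 301 in CBE-1, 237 and 248 in CBE-2 and 404 and 395 in the Eµ-null line. The 2 CBE lines were below the other lines without overlap, and the Eµ-null line lay just below WT. The difference from WT was -0.68 in the CBE lines (SE 0.08, limma adjusted p = 0.0011), -0.53 in CBE-1 (adjusted p = 0.0073) and -0.83 in CBE-2 (adjusted p = 0.000915), against -0.11 in the Eµ-null line (adjusted p = 0.408). The difference between the Eµ-null and the CBE lines was itself called, at 0.57 (adjusted p = 0.00438). The joint call in the CBE lines and that between the Eµ-null and CBE lines held without any single library and under 17 other settings, and the call in CBE-1 was lost without either WT library (adjusted p up to 0.0858). Between the CBE lines the difference of -0.30 was not called (adjusted p = 0.0898, and 0.0396 with the block).

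Rpl22 itself was at 243 and 265 FPKM in WT, 178 and 215 in CBE-1, 223 and 251 in CBE-2 and 218 and 228 in the Eµ-null line. It differed by -0.24 in the CBE lines (limma adjusted p = 0.178, and 0.0436 with the replicate block), and CBE-2 overlapped with WT. Rpl22 and Rpl22l1 were thus both below WT in CBE-1. Rpl22 was higher in CBE-2 than in CBE-1, like most members (72 of 80), and Rpl22l1 was lower. Neither difference between these lines was called without the block. A relation between the levels of these genes was not tested.

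The X-linked Rpl36a and its autosomal copy Rpl36al differed in pattern. Rpl36a was at 531 and 547 FPKM in WT, 384 and 380.0 in CBE-1, 396 and 442 in CBE-2 and 387 and 415 in the Eµ-null line, different from WT by -0.43 in both the CBE lines (limma adjusted p = 0.0161) and the Eµ-null line (adjusted p = 0.0296), with WT highest. Both calls were lost without either WT library (adjusted p up to 0.184), that in the CBE lines also without CBE-2 replicate 1, and that in the Eµ-null line also without either library of CBE-2 or Eµ-null replicate 1. Rpl36al was at 814 and 756 FPKM in WT, 867 and 791 in CBE-1, 955 and 912 in CBE-2 and 722 and 557 in the Eµ-null line. CBE-2 was above WT, CBE-1 overlapped with WT and the Eµ-null line was lowest: the differences from WT were 0.16 (adjusted p = 0.423) and -0.31 (adjusted p = 0.192), and that between the Eµ-null and CBE lines was -0.47 (adjusted p = 0.0644, and 0.0148 with the block).

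Rps27l encodes a close relative of RPS27 and is known as a gene that p53 can induce (mm9 chromosome 9, 66793925 to 66797316). It was at 444 and 445 FPKM in WT, 395 and 363 in CBE-1, 356 and 291 in CBE-2 and 304 and 229.9 in the Eµ-null line. WT was highest, and the Eµ-null line, lowest on average, overlapped with CBE-2. The difference was -0.75 in the Eµ-null line (SE 0.16, limma adjusted p = 0.0213) and -0.35 in the CBE lines (adjusted p = 0.137, and 0.0388 with the block). Between the Eµ-null and CBE lines it was -0.40 (adjusted p = 0.128, and 0.0351 with the block). The call in the Eµ-null line was lost without either WT library or Eµ-null replicate 2 (adjusted p up to 0.121).

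Rps27 itself cannot be read from its own entry. Rps27 and Rps27rt, a near-identical copy, are both placed on mm9 chromosome 3, 90016589 to 90017570 in the deposited tables, and RefSeq places Rps27rt on chromosome 9 of GRCm38. The Rps27 entry was at 11.2 and 107 FPKM in WT, 54.3 and 7.80 in CBE-1, 9.88 and 11.4 in CBE-2 and 12.1 and 52.7 in the Eµ-null line, and its libraries differed widely within WT, CBE-1 and the Eµ-null line. The Rps27rt entry was at 1004 and 957 FPKM in WT, 718 and 820.0 in CBE-1, 802 and 904 in CBE-2 and 813 and 943 in the Eµ-null line. Summed, both entries were at 1015 and 1064 FPKM in WT, 773 and 828 in CBE-1, 812 and 915 in CBE-2 and 826 and 996 in the Eµ-null line, with WT highest. The difference of the sum was -0.32 in the CBE lines (limma adjusted p = 0.0998) and -0.20 in the Eµ-null line (adjusted p = 0.346). For the Rps27 entry alone, the difference in the CBE lines was -1.19 (adjusted p = 0.497), and it was -2.76 without WT replicate 1 and turned to 0.39 without WT replicate 2. Rps27rt alone differed by -0.28 (adjusted p = 0.145).

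**Figure D4:**
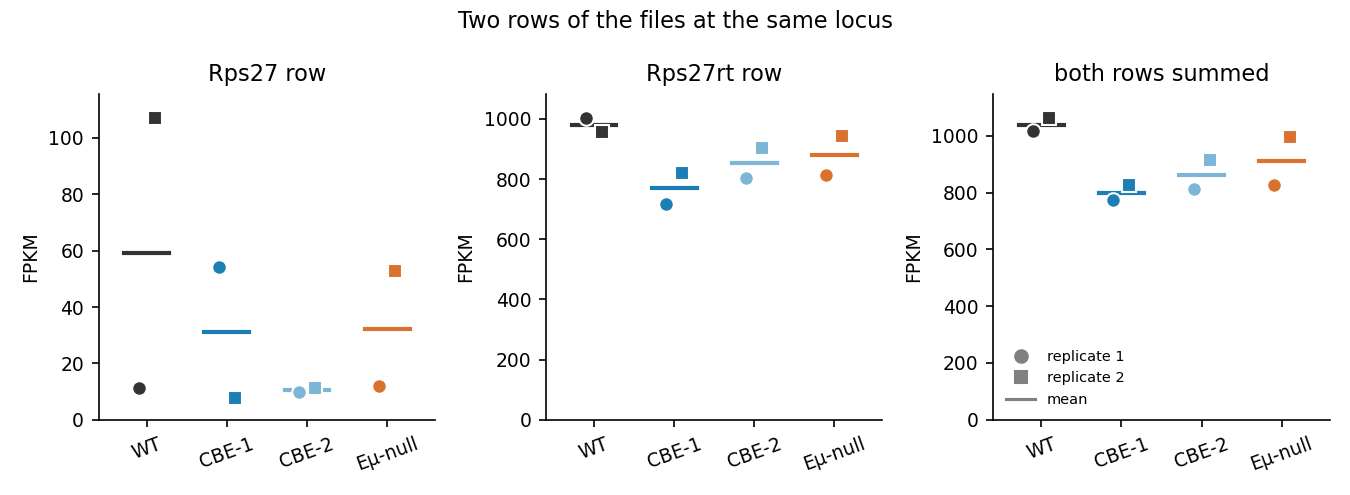
FPKM (y axes, each from 0) of the Rps27 entry, the Rps27rt entry and their sum in each library (x axis). Circles are replicate 1, squares replicate 2 and bars the line means. The Rps27 entry ranges from 7.80 to 107 FPKM over the libraries, while the sum lies between 773 and 1064 FPKM and is highest in WT.

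Other members share their locus or sequence with another entry in the same way. Rps15a was at 26.6 to 40.1 FPKM, while its pseudogene entries Rps15a-ps4 and Rps15a-ps6 were at 171 to 229.8 and 175 to 243 FPKM, and the 3 summed to 376 to 511. Rpl34 was at 14.2 to 26.4 FPKM and Rpl34-ps1, at the same place, at 40.8 to 80.01. Rpl30 was at 21.7 to 31.6 FPKM and the overlapping entry Gm12191 at 240.3 to 339. Rpl26, an essential large subunit gene, was listed at no more than 0.000227 FPKM, while Gm15772, which overlaps it on mm9 chromosome 11, was at 1975 to 2418. The low values of these 4 genes are values of an entry that shares its place or sequence with a higher one. With such entries summed, the counts of called members were the same as above in the 4 comparisons, and none of Rpl26, Rpl30, Rpl34 and Rps15a was called against WT (limma adjusted p from 0.296 to 0.842).

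The paralogues used in particular tissues were near or at 0. Rpl10l, a testis copy of the X-linked Rpl10, was listed at 0 in every library, and Rpl39l, another testis paralogue, and Rps4l were listed at 0 in all libraries but Eµ-null replicate 1, where they were at 0.0279 and 0.0227 FPKM. Rpl3l, the muscle paralogue of Rpl3, was at 0 to 0.0845 FPKM. Their widely used counterparts were high: Rpl10 was at 462 to 574 FPKM, Rpl39 at 2680 to 3593, Rps4x at 2376 to 3260.3 and Rpl3 at 699 to 975. Rpl7l1 was expressed, at 56.9 to 65.2 FPKM, beside 1533 to 1866 for Rpl7. For Rpl7l1 all 4 libraries of the CBE lines were above WT and the Eµ-null line overlapped with it, and for Rpl7 all mutant libraries were below WT.

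Sequence shared with pseudogenes and other genes is a general property of this family. In 84 members with a GENCODE M21 transcript, a median of 48.2% of the 75-base windows, the length of the reads, also occurred in a transcript of another gene, 38 members had 50% or more and 5 had none. The sources used here do not state how reads with several matches were counted. Read by sharing, the median difference from WT in the CBE lines was -0.21 for the 11 tested members under 10%, -0.23 for 32 members from 10 to 50% and -0.20 for 37 members at 50% or more. In the Eµ-null line the medians were -0.10, -0.16 and -0.16. Rps21 at 6.56% and Rps12 at 89.5% were both called, so calls were found among members that share little and members that share much.

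**Figure D5:**
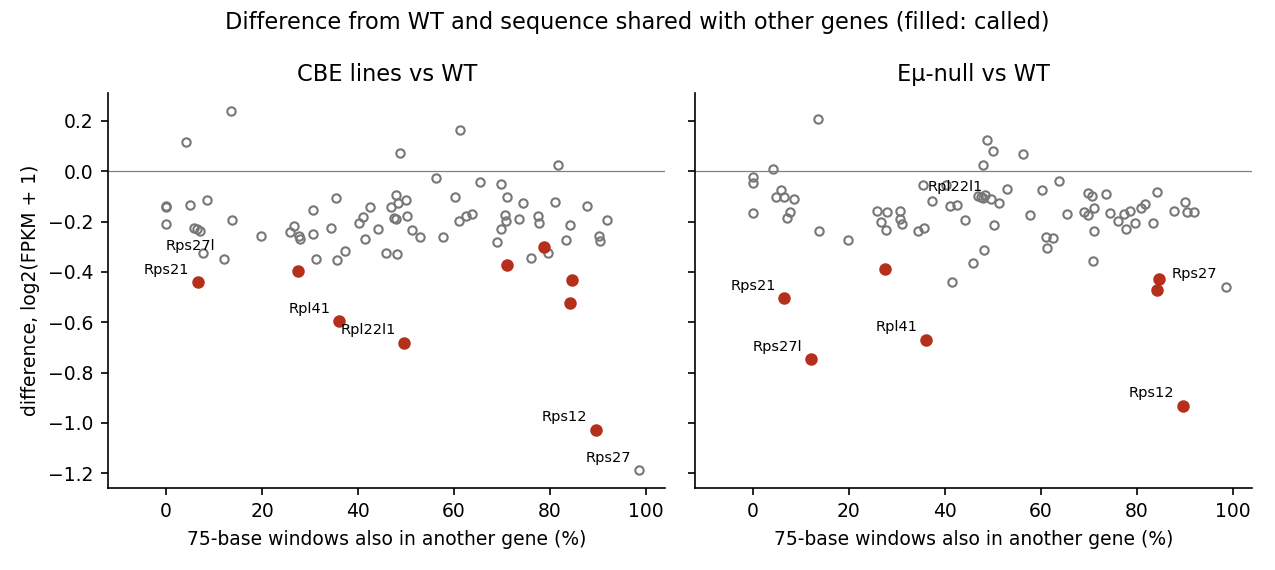
Percent of a member's 75-base transcript windows that also occur in another gene (x axis) and its difference from WT on the log2(FPKM + 1) scale (y axis), in the CBE lines (left) and the Eµ-null line (right). Each point is a tested member, filled where the limma adjusted p was under 0.05. Points lie below 0 along the whole x axis, from Rps21 at 6.56% to Rps12 at 89.5%.

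The other genes of ribosome production were read as lists. Gnb2l1 was at 2794 ± 124 FPKM (SD, n = 2) in WT, 2241 ± 288 in CBE-1, 2677 ± 279 in CBE-2 and 2659 ± 233 in the Eµ-null line, and it was not called in the 4 comparisons, with or without the replicate block. Of 19 measured translation genes known to carry a TOP tract, 0 were higher and 2 lower in the CBE lines, with a median of -0.22, and 0 were called in the Eµ-null line, with a median of -0.10 (beside 22.3 and 21.8% of all genes called). The 2 were Eef1b2, a subunit of the exchange factor of eEF1A (-0.44, limma adjusted p = 0.0497), and Hnrnpa1, an RNA-binding protein (-0.46, adjusted p = 0.0445), which was higher in the Eµ-null line than in the CBE lines by 0.72 (adjusted p = 0.0143), a call lost without either library of CBE-2 or Eµ-null replicate 2 (adjusted p up to 0.064). Under the block 6 of the 19 were called lower in the CBE lines and 1 in the Eµ-null line, beside 15.1 and 16.4% of all genes. The calls of Eef1b2 and of Hnrnpa1 against WT were lost without either WT library (adjusted p up to 0.287) and without either library of CBE-2, that of Eef1b2 also without CBE-1 replicate 1 and that of Hnrnpa1 also without either Eµ-null library.

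Of 15 genes of RNA polymerase I, which makes the ribosomal RNA, 0 were higher and 2 lower in the CBE lines (beside 12.5% of all genes higher and 9.78% lower): Taf1b, of its promoter factor (-0.68, limma adjusted p = 0.00204), and Polr1d (-0.39, adjusted p = 0.0494). None of them was called in the Eµ-null line, beside 21.8% of all genes. With the replicate block 2 were lower there, beside 16.4% of all genes. Of 78 ribosome assembly factors, Utp3 was higher in the CBE lines (0.37, limma adjusted p = 0.013), with a median of 0.02 over the list. Ltv1, which helps to mature the small subunit, was lower (-0.48, adjusted p = 0.0282), beside 22.3% of all genes called. With the replicate block 1 was higher and 3 lower, beside 17.9% of all genes higher and 15.1% lower. In the Eµ-null line 1 was higher and 3 lower, beside 21.8% of all genes called, among them the kinase Riok1 (-0.61, adjusted p = 0.00998) and Ltv1 (-0.60, adjusted p = 0.0226). The calls of Polr1d, Utp3, Ltv1 and Riok1 were lost without either WT library (adjusted p up to 0.255), those in the CBE lines other than Taf1b also without either library of CBE-2, those of Polr1d and Ltv1 there also without either library of CBE-1, and that of Ltv1 in the Eµ-null line also without Eµ-null replicate 2. That of Taf1b held without any single library.

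Of 72 mitochondrial ribosomal protein genes, 0 were higher and 4 lower in the CBE lines (beside 9.78% of all genes lower), with a median of -0.05, among them Mrpl24 (-0.83, limma adjusted p = 0.00428), Mrpl32 (-0.58, adjusted p = 0.00675) and Mrps34 (-0.48, adjusted p = 0.0177). In the Eµ-null line 0 were higher and 5 lower (beside 10.4% of all genes lower), with a median of -0.23, among them Mrpl52 (-0.85, adjusted p = 0.0148), Mrps24 (-0.75, adjusted p = 0.0297) and Mrps34 (-0.50, adjusted p = 0.0273). With the replicate block 10 were lower and 1 higher in the CBE lines and 21 lower in the Eµ-null line, beside 33 and 34% of all genes called and 15.1 and 16.4% lower. Calls of Mrpl24 and Mrpl32 were lost without WT replicate 2 (adjusted p = 0.0598 and 0.0914), and those of Mrps34, Mrpl52 and Mrps24 without either WT library (adjusted p up to 0.180). Both calls of Mrps34 and that of Mrps24 were also lost without either library of CBE-2, and the 3 calls in the Eµ-null line without Eµ-null replicate 2.

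Among 17 regulators of ribosomal protein synthesis, 0 were called in the CBE lines, beside 22.3% of all genes. With the replicate block 2 were higher and 1 lower there, beside 17.9% of all genes higher and 15.1% lower. In the Eµ-null line 1, Gabpa, was higher (0.46, limma adjusted p = 0.0243), beside 11.3% of all genes higher. The call of Gabpa was lost without either WT library, either library of CBE-2 or Eµ-null replicate 2. With the block 3 were higher in the Eµ-null line, beside 17.6% of all genes. Myc, a driver of ribosome production, was at 193 ± 39.3 FPKM (SD, n = 2) in WT, 141 ± 26.3 in CBE-1, 210.1 ± 24.2 in CBE-2 and 187 ± 3.24 in the Eµ-null line. Mtor was at 49.8 ± 5.25 FPKM in WT, 38.7 ± 9.68 in CBE-1, 37.8 ± 6.14 in CBE-2 and 44.8 ± 5.996 in the Eµ-null line. Larp1 was at 36.1 ± 1.12, 37.9 ± 3.11, 42.7 ± 0.309 and 44.5 ± 1.58 FPKM. None of these 3 was called against WT.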

How the data were processed

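RNA was measured in 8 libraries of 4 lines, 2 each. The authors deposited FPKM per gene with an interval and a quantification status, per the file headers; TopHat, Cufflinks and the build mm9 are named in the submitters' processing notes, without versions, and the sources used here do not state the settings. Per the labels' protocols, libraries were made with the TruSeq stranded mRNA kit and read as single 75 bp reads. FPKM of the 277 symbols at several loci were added up, and 21 symbols not marked OK in every library, none of them a member, were left out. Genes at 1 FPKM or more in at least 2 libraries (10479) were tested with limma 3.58.1 (R 4.3.3), in 1 fit of log2(FPKM + 1) over all 8 libraries with a trend of the variance on the mean and 4 residual degrees of freedom. The script was tested on simulated data. A fold change on this scale understates that of low genes. Reads per library were implied from each interval taken as 2 SD on each side and are approximate; no count test was made.

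Lines share the replicate numbers 1 and 2 in the sample titles. The deviations of same-numbered libraries from their line means correlated over genes with 0.279 to 0.502 in all 6 pairs of lines, and over the members alone with -0.83 to 0.86. The members' values include the Rps27 entry, at 11.2 and 107 FPKM in WT and 54.3 and 7.80 in CBE-1. They were not computed without it, so they cannot show how the other members follow the replicate number. In WT, CBE-1, CBE-2 and the Eµ-null line 64, 66, 74 and 60 of the 80 tested members were higher in replicate 2. By the values over all genes the numbers were taken to pair the libraries and a block on the number was fitted.

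The members, the other gene lists and the tests were chosen with earlier results of these data known. Named were the members called (up to 8 in each direction and comparison), the paralogue pairs, the stalk genes with Rpsa, the 5 members with the highest mean, every member under the filter and up to 3 called genes of each other list. Rpl7l1, Rpl28, the genes called with the block or with scaling to the members' median, the genes listed as having WT above all mutant libraries or not, and the genes shown in sequence or for overlapping entries were chosen after their values were seen. Start-site sequences are from RefSeq (GRCm38.p6) and transcript windows from GENCODE M21, matched by symbol; no coordinates were carried between builds. Alternatives were pseudocounts of 0.1 and 5, no filter or a mean of 5 FPKM, 5 scalings (median of ratios with and without the members, the members' median, TPM and quantile), limma with a robust prior or no trend, fits of the compared libraries alone, the replicate block, the highest locus of a symbol, other statuses kept, each library left out and, chosen after seeing the data, overlapping entries summed and the block with the members' median scaling. Some genes are not reported here by name.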

Additional observations from a re-analysis of the deposited data

Results flagged for a closer look

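The difference from WT itself differed between lines for 2 members. Rpl22l1 was higher in the Eµ-null line than in the CBE lines by 0.57 on the log2 scale (limma adjusted p = 0.00438): both libraries of the Eµ-null line, at 404 and 395 FPKM, were above all 4 libraries of the CBE lines, at 237 to 301 FPKM. Rps21 was higher in CBE-2 than in CBE-1, which carry the same labelled genotype, by 0.43 (adjusted p = 0.0447), with differences from WT of -0.22 and -0.66. This call of Rps21 was lost without any library of WT or of the CBE lines. It was also lost with scaling to the members' median and with TPM.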

How the results depend on the processing

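The cause of the changes below was not tested. The 9 members called in the CBE lines against WT became 14 without the trend and 26 with the replicate block, and 2 to 12 when single libraries were left out. Scaling to the members' median called 3 higher and 3 lower there, and quantile normalization 2 higher and 4 lower. The 7 in the Eµ-null line became 3 without the filter, 3 with scaling to the members' median and 3 with quantile normalization. Of all genes, 2284 became 2110, 2718 and 2422. With only the libraries compared 1 member was called, beside 1255 of all genes. Without either WT library fewer members were called, as were fewer of all genes. The 1 between the CBE lines became 0 with a mean of 5 FPKM and with scaling to the members' median. It also became 0 with TPM and with only the libraries compared. At an unadjusted limma p under 0.05 these fits held 10, 1, 7 and 6 members. Of all genes, 1069 became 369, 1310, 1174 and 750. Between the CBE lines 2 members were called with quantile normalization and 6 with the block, beside 1234 and 1736 of all genes. Without the filter it was another gene, called lower. In the leave-outs the number moved in both directions, as did that over all genes. The 1 between the Eµ-null and CBE lines became 2 with quantile normalization, 3 with the block and 3 with the block and the members' median scaling. Over all genes 1301 became 1482, 2331 and 2373. Without Eµ-null replicate 1 more members were called, as were more of all genes. The summed level of the Eµ-null line, 87.1% of WT, was 91.7% as a share of all FPKM. Direction turned for Rpl22l1 in the Eµ-null line (to 0.0717 with the members' median scaling, also with the block, and 0.0395 with quantile normalization), for Rps13 there (to 0.0234 with the members' median scaling, also with the block) and for Rps27 in the CBE lines (-2.76 without WT replicate 1, 0.39 without WT replicate 2). Over all genes and comparisons given, 1234 values kept direction and side of the threshold, 221 lost a call, 38 gained one and 6 turned. The block changed no other call of a gene whose difference is given, beside those stated. Where a leave-out left 1 library in a line, the fit took its spread from the other lines. The lowest entry of the tested members, Rps27, held 62 implied reads. Implied reads did not follow the level in every member. Rpl32, at a mean of 3160 FPKM, held 2243 to 2292 over the libraries, and Rps20, at 2634 FPKM, 39978 to 75243.5. Whether depth was limiting was not tested.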

Other observations

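Several pseudogene entries that the naming rule leaves out were as high as ribosomal protein genes. Rpl14-ps1 was at 1369 to 2015 FPKM over the 8 libraries, above Rpl14 itself (449 to 653), and Rplp2-ps1 at 1162 to 1529, above Rplp2 (688 to 1001). Rpl31-ps12 was at 724 to 909 FPKM and Rps19-ps3 at 388 to 516. In the Rpl14-ps1 entry the libraries of CBE-1, at 1437 ± 96.4 FPKM (SD, n = 2), were below those of WT, at 1901 ± 162, as they were for most members. Of the transcript windows of Rpl14, 42.6% also occur in another gene, in each case Rpl14-ps1, so Rpl14 and Rpl14-ps1 can share reads. For Rplp2 the only other gene found was Wdr89. Rpl31 and Rps19 shared most windows with Rpl31-ps8 and Rps19-ps6.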
